A study of Drosophila melanogaster with 5 samples.

Results

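mir-279 and mir-996 are neighbouring microRNA genes of Drosophila melanogaster. Their rows were taken from the deposited count table by hairpin name, which gave 4 of 479 rows: the 5p and the 3p arm of each hairpin. Small RNA of the dissected intestine (3 libraries) was compared with that of the carcass, the body left after the intestine was taken out (2 libraries). All flies were adult males of w1118, a stock with white eyes and otherwise described as wild type, aged 2 to 3 days and kept on standard food without treatment. The labels do not say how many flies went into a library or whether libraries of one tissue came from separate flies, so each p-value rests on the spread among the 5 libraries and may reflect technical variation alone. Either tissue is a mixture of cell types, and in such bulk samples fewer cells of a type and less RNA per cell cannot be told apart.

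A microRNA gene is transcribed as a long primary transcript, from which a hairpin is cut and then processed to a short duplex of a 5p and a 3p arm. One arm is usually kept in an Argonaute protein, where it pairs with messenger RNAs through its seed near the 5′ end, and the other arm is mostly degraded. In flies, miR-279-3p and miR-996-3p share their seed, and either microRNA can replace the other in several rescue experiments. miR-279 is known for preventing extra CO2-sensing neurons through the zinc finger factors Nerfin-1 and Escargot, for limiting STAT during border cell specification in the ovary, and for acting on the JAK/STAT ligand Unpaired in circadian output. The pair is also known for repressing insensible, a gene that opposes Notch signalling in bristle organs. Escargot is known in the intestine as a factor of stem cells and their young daughter cells.

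In the BDGP6.54 annotation both hairpins lie on the plus strand of chromosome 3R, within the long noncoding RNA gene lncRNA:CR31044 (FBgn0051044, 29214562 to 29219667), for which the RefSeq gene table lists pri-mir-279_mir-996 as a synonym. The mir-279 hairpin (FBgn0262448) covers 29215585 to 29215684, with miR-279-5p at 29215606 to 29215631 and miR-279-3p at 29215651 to 29215672. The mir-996 hairpin (FBgn0262404) covers 29217184 to 29217280, with miR-996-5p at 29217202 to 29217223 and miR-996-3p at 29217244 to 29217265. A gap of 1499 bases separates the hairpins, and no other hairpin of the table lies within 10000 bases on either strand. No protein-coding gene overlaps the primary transcript, and the next one downstream, eEF1gamma, a translation elongation factor subunit, begins after 504 bases. Of the 3 annotated isoforms, RA is unspliced and holds the hairpins in its only exon, RC holds them in exon 2 of 3, and in RB they are intronic. The annotated arms measure 22 nt, except for miR-279-5p with 26 nt. The arms' sequences were not used here, so the shared seed is given as background only.

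**Figure D1:**
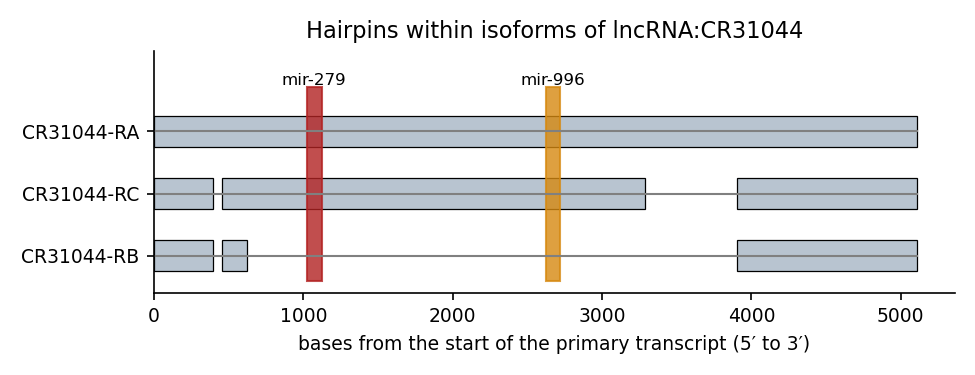
Map of the primary transcript, with bases from its start on the horizontal axis and 1 row for each isoform. Boxes are exons, lines are introns and coloured bands are the hairpins. The mir-279 hairpin begins 1023 bases and the mir-996 hairpin 2622 bases into the transcript, and both bands cross an exon of RA and RC and an intron of RB.

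The intestine libraries held 329424 to 547937 microRNA reads and the carcass libraries 1654625 to 3038873. Of all rows, 234 to 268 had a read in an intestine library and 368 to 374 in a carcass library. Counts of libraries from one tissue differed by more than sampling noise (chi-square of 10.9 to 179 per degree of freedom), so none was treated as a second deposit of another. Marker microRNAs fitted the labels. Those of neurons (miR-124, 2 arms) summed to 43.4 to 63.7 CPM (reads scaled to equal library totals) in the intestine, against 5248 to 6615 in the carcass. The testis clusters (36 arms, 13 of them without a read in any intestine library) summed to 35.3 to 45.6 CPM in the intestine, against 3142 to 3235 CPM in the carcass, and microRNAs of the eye (4 arms, 2 without an intestine read) to 100.4 to 170 CPM in the intestine, against 13459 to 21113 CPM in the carcass. MicroRNAs of muscle, miR-1 and miR-133 (4 arms, all with reads), summed to 27823 to 41637 CPM in the intestine, against 143062 to 153071 CPM in the carcass. Most of that sum was miR-1-3p, whose mean was 40462 CPM in the intestine, against 113769 CPM in the carcass (TMM scale, described below). miR-133-3p was scarce in the intestine, with a mean of 75.9 CPM, against 5125 CPM in the carcass on that scale. miR-375, which marks endocrine cells (2 arms), had 29706 to 33965 CPM in the intestine, against 5884 to 6336 CPM in the carcass. miR-958 (2 arms) had 191190 to 200001 CPM in the intestine, against 756 to 888 CPM in the carcass. It was taken as an intestine marker from the study of these same libraries, so its values are no independent check of the labels. The part of muscle or any other cell type in the values below was not tested.

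All 4 arms were detected in every library, and miR-996-3p was the leading product of the locus throughout. Its raw counts were 4829, 2614 and 2443 reads in intestine libraries 1, 2 and 3, against 8222 and 17913 reads in carcass libraries 1 and 2. It took 75.4 to 79.6% of the pair's reads in the intestine, against 66.3 to 74.8% in the carcass. miR-279-3p followed with 1037, 678 and 624 reads in the intestine, against 3830 and 5278 reads in the carcass. The 5p arms were minor products. miR-996-5p had 155, 148 and 78 reads in the intestine, against 270 and 575 reads in the carcass, and miR-279-5p had 43, 28 and 18 reads in the intestine, against 85 and 167 reads in the carcass. The order miR-996-3p, miR-279-3p, miR-996-5p, miR-279-5p held in each of the 5 libraries. By count among all 479 rows, miR-996-3p ranked 20 to 24 in the intestine, against 29 to 30 in the carcass, and miR-279-3p ranked 46 to 50 in the intestine, against 51 to 55 in the carcass. miR-996-5p ranked 79 to 87 in the intestine, against 119 to 124 in the carcass, and miR-279-5p ranked 113 to 122 in the intestine, against 171 to 174 in the carcass. A rank depends on the levels of all other rows, so it does not give the tissue difference of an arm.

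Summed over its 4 arms, the pair made up 1.11, 0.941 and 0.960% of the microRNA reads of the intestine libraries, against 0.750 and 0.788% of those of the carcass libraries. The shares averaged 1.003 ± 0.090% in the intestine (SD, n = 3), against 0.769 ± 0.027% in the carcass (SD, n = 2), and the tissues did not overlap. With the factors of the trimmed mean of M-values (TMM), which assume that most microRNAs are level between libraries, the pair averaged 11602 ± 1044 CPM in the intestine, against 6189 ± 439 CPM in the carcass. That assumption is in doubt here, since 82.9% of the tested arms were called different between the tissues. The log2 fold change of the summed pair was 0.86 (SE 0.22, edgeR quasi-likelihood test, Benjamini-Hochberg adjusted p = 0.000141), in a fit that pooled the spread fully over all tested arms. It was not called on library totals (0.38, adjusted p = 0.0850), and without intestine replicate 1 it was 0.56 and still called (adjusted p = 0.00575).

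Arm by arm, miR-996-3p, miR-996-5p and miR-279-5p were called higher in the intestine, and miR-279-3p did not pass. This does not show that the arms differed from each other in their tissue difference: the edgeR tests of that, on ratios of reads, did not pass. Of the 222 arms tested, 34.7% were called higher and 48.2% lower, and 82.9% were called in either direction, so a call by itself sets no arm apart. miR-996-3p measured 10133, 8034 and 8824 TMM-scaled CPM in the 3 intestine libraries, against 3896 and 4865 CPM in those of the carcass. Each intestine library lay above both carcass libraries. The means were 8997 ± 1060 CPM in the intestine, against 4380 ± 685 CPM in the carcass. Its fitted log2 difference was 1.04 (SE 0.23, edgeR adjusted p = 9.47e-05), which is 2.05-fold.

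For miR-279-3p, the arm through which mir-279 is known to act, the tissue difference did not pass the test. It measured 2176, 2084 and 2254 TMM-scaled CPM in the intestine, against 1815 and 1433 CPM in the carcass. The intestine values lay close together, the carcass values lay further apart, and the tissues did not overlap on this scale. The means were 2171 ± 85.2 CPM in the intestine, against 1624 ± 270 CPM in the carcass, with a log2 fold change of 0.42 (95% interval -0.06 to 0.90, edgeR adjusted p = 0.0999). On library totals the order of the means turned, with 1876 ± 30.5 CPM in the intestine, against 2026 ± 409 CPM in the carcass, and the 3 intestine values (1893, 1841 and 1894 CPM) lay between those of carcass 1 (2315 CPM) and carcass 2 (1737 CPM).

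The minor arm miR-996-5p measured 325, 455 and 282 TMM-scaled CPM in the intestine, against 128 and 156 CPM in the carcass. The tissues did not overlap, and intestine 2 was the highest library. Its means were 354 ± 90.1 CPM in the intestine, against 142 ± 20.0 CPM in the carcass, with a fitted log2 fold change of 1.31 (SE 0.26, by edgeR, adjusted p = 2.48e-05). miR-279-5p, the scarcest arm, measured 90.2, 86.1 and 65.0 CPM in the intestine, against 40.3 and 45.4 CPM in the carcass. These values rested on 89 intestine and 252 carcass reads in all, and again did not overlap. The fitted log2 difference was 0.92 (SE 0.29, adjusted p = 0.00400 by edgeR). The call was lost without intestine replicate 1 (0.59, adjusted p = 0.151) or 2 (0.75, adjusted p = 0.0568), and also with RLE factors, library totals, DESeq2, no filter and thinned libraries. All 4 arms were separated between the tissues on the TMM scale, as were 87.8% of all tested arms.

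**Figure D2:**
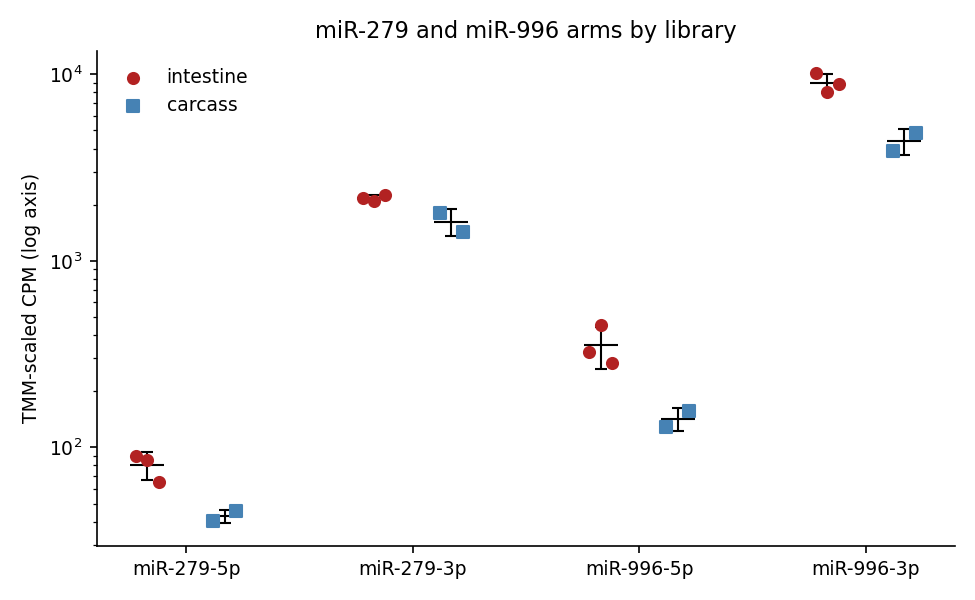
TMM-scaled CPM of each arm on a log axis, with 1 point for each library, intestine (circles) left of carcass (squares), and the mean and SD in black. Each arm's intestine points lie above its carcass points, for miR-279-3p at 2084 to 2254 CPM in the intestine, against 1433 to 1815 CPM in the carcass.

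The size of each difference depended on the scaling, which shifts all arms by about the same amount and so leaves their order by fold change as it is. Over all tested arms the median log2 fold change came to -0.50 with TMM and -1.02 with library totals, with upper-quartile, RLE and top-arm-free totals between them. miR-996-3p was called higher with each of these 5 scalings, from 0.52 with library totals to 1.04 with TMM, and so was miR-996-5p, from 0.80 to 1.31. miR-279-3p was called with none of them and ran from -0.11 with library totals to 0.42 with TMM. Relative to the median of all tested arms with TMM, miR-996-3p stood at 1.54 and miR-279-3p at 0.92. A scaling moves the arms and their median together, so these values are nearly the same under any of them. They do depend on which arms the filter keeps, as do the shares of arms given next. With no filter the median was -1.345. The log2 fold changes themselves, not taken relative to that median, were then 0.63 for miR-996-3p and 0.019 for miR-279-3p. Both arms thus lay further above the median than with the filter. By log2 fold change with TMM, miR-996-5p lay above 81.1% of the tested arms, miR-996-3p above 77.0%, miR-279-5p above 73.4% and miR-279-3p above 63.1%.

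**Figure D3:**
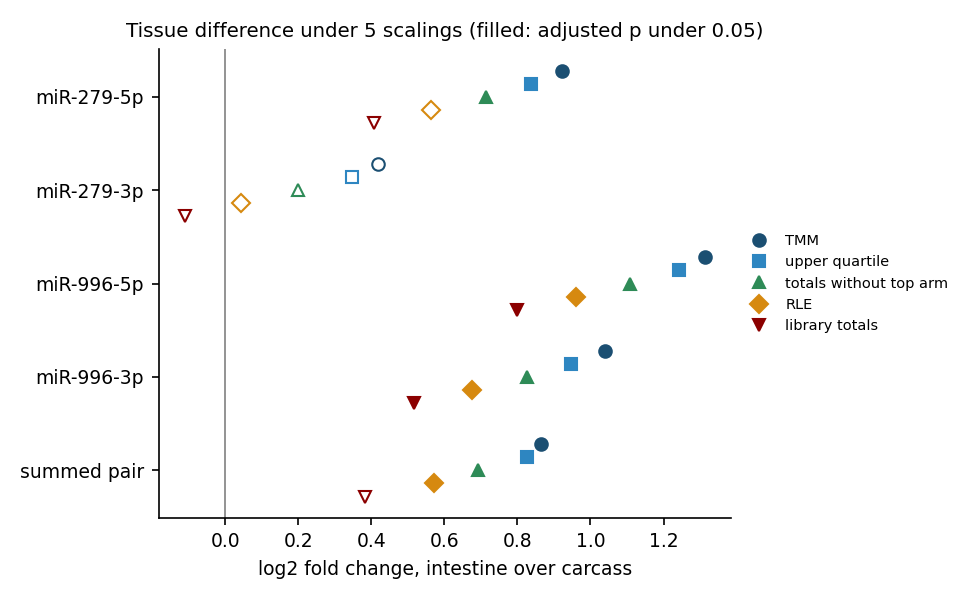
Log2 fold change, intestine over carcass, of each arm and of the summed pair under 5 scalings, 1 marker shape for each. Filled markers passed an adjusted p of 0.05 (edgeR). Both mir-996 arms stay filled, from 0.52 upwards, whereas miR-279-3p is open throughout and lies below 0 only with library totals (-0.11).

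The ratio of the hairpins within a library does not depend on any scaling between libraries, and it addresses whether the products of one primary transcript differed between tissues to the same degree. There were 4.66, 3.86 and 3.92 miR-996-3p reads for each miR-279-3p read in intestine libraries 1, 2 and 3, against 2.15 and 3.39 in carcass libraries 1 and 2. The exact (Clopper-Pearson) 95% intervals were 4.35 to 4.98, 3.54 to 4.20 and 3.58 to 4.28 in the intestine, against 2.07 to 2.23 and 3.29 to 3.50 in the carcass. These intervals hold counting error alone. They take each read as independent, which could not be checked because no molecular identifiers were used. Every intestine library was above every carcass library, and the carcass libraries stood further from each other than the intestine libraries did. The log2 ratio averaged 2.04 ± 0.15 in the intestine (SD, n = 3), against 1.43 ± 0.47 in the carcass (SD, n = 2).

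The fitted difference in the log2 ratio was 0.61 and did not pass the test of usage within genomic clusters (edgeR diffSpliceDGE, adjusted p = 0.122 for miR-279-3p and 0.832 for miR-996-3p), in which 23.2% of 56 arms were called. Carcass 1 weighed heavily on it. Markers of the eye and of neurons also differed between the carcass libraries, with 13459 and 5248 CPM in carcass 1 and 21113 and 6615 CPM in carcass 2. The other marker sets differed by smaller factors. Those of muscle (153071 and 143062 CPM in carcass 1 and 2) and testis (3235 and 3142 CPM) ran the other way. miR-375 (5884 and 6336 CPM) and miR-958 (756 and 888 CPM) were higher in carcass 2. The part of any of these in the ratio was not tested. Without carcass replicate 1 the difference was 0.29 (adjusted p = 0.722), and without carcass replicate 2 it was 0.95 (adjusted p = 0.0297). limma on log2 ratios, fitted over the 7 clusters with exactly 2 tested 3p arms, gave 0.61 (95% interval 0.14 to 1.08, adjusted p = 0.0239) and called 57.1% of these clusters. With 5 libraries the exact two-sided permutation test cannot go below 0.2, the value it gave. Among the 7 clusters, 4 had tissues that did not overlap in this ratio, and 3 had a larger mean difference than the pair.

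The 5p arms gave ratios on the same side with wider counting error. There were 3.60, 5.29 and 4.33 miR-996-5p reads for each miR-279-5p read in the intestine, against 3.18 and 3.44 in the carcass, with intervals that reached from 2.56 to 8.23 in the intestine, against from 2.48 to 4.12 in the carcass. The tissues did not overlap in the values, as in 60% of the 5 clusters with exactly 2 tested 5p arms, but the intervals did. In contrast to the 3p arms, both carcass libraries had nearly the same 5p ratio. The fitted difference was 0.37 on the log2 scale (diffSpliceDGE adjusted p = 0.669 for miR-279-5p, with 8.89% of 45 arms called; limma 95% interval -0.13 to 0.89). With both arms summed, the ratio of mir-996 to mir-279 was 4.61, 3.91 and 3.93 in the intestine, against 2.17 and 3.40 in the carcass. The fitted difference was 0.65 (adjusted p = 0.385 for mir-279, with 10.8% of 65 hairpins called; limma 95% interval 0.05 to 1.16, adjusted p = 0.0852), and it was 0.29 without carcass replicate 1 and 0.94 without carcass replicate 2.

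**Figure D4:**
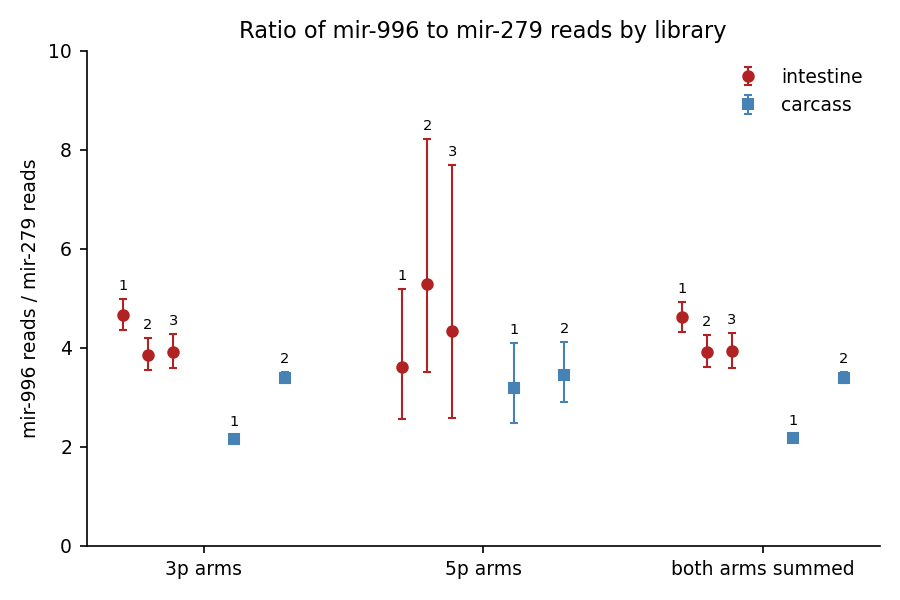
Reads of mir-996 for each read of mir-279 in each library (number above the point), for 3p arms, 5p arms and both summed, intestine (circles) left of carcass (squares). Bars are 95% counting intervals. In the 3p arms carcass 1 (2.15) stands apart from carcass 2 (3.39), which lies below the intestine libraries (3.86 to 4.66).

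Both hairpins gave mostly their 3p arm in every library. For mir-279 there were 24.1, 24.2 and 34.7 reads of the 3p arm for each 5p read in the intestine, against 45.1 and 31.6 in the carcass. The tissues overlapped, since intestine 3 was above carcass 2. The 5p arm thus took 3.98, 3.97 and 2.80% of the hairpin's reads in the intestine, against 2.17 and 3.07% in the carcass. The difference in the log2 ratio of 3p to 5p was -0.50 and did not pass (diffSpliceDGE adjusted p = 0.467 for miR-279-5p, with 10% of 170 arms called; limma 95% interval -1.46 to 0.48).

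For mir-996 the 3p to 5p ratio was 31.2, 17.7 and 31.3 in the intestine, against 30.5 and 31.2 in the carcass. All libraries but intestine 2 lay within 30.5 to 31.3, and the counting interval of intestine 2, which ended at 21.0, did not reach the other 4 values. The log2 ratio differed by -0.28 between the tissues (diffSpliceDGE adjusted p = 0.980 for miR-996-5p; limma 95% interval -1.02 to 0.51), and by 0.013 without intestine replicate 2. Over the 85 hairpins with both arms tested, the median ratio of the more to the less abundant arm was 11.0, and it was larger than in mir-279 (median of the 5 libraries 31.5) for 32 hairpins and larger than in mir-996 (31.1) for 34. The median absolute difference between tissues in the log2 arm ratio was 0.62 over these hairpins, against 0.49 for mir-279 and 0.26 for mir-996. The tissues did not overlap in this ratio for 50.6% of the 85 hairpins, and overlapped for mir-279 and mir-996.

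**Figure D5:**
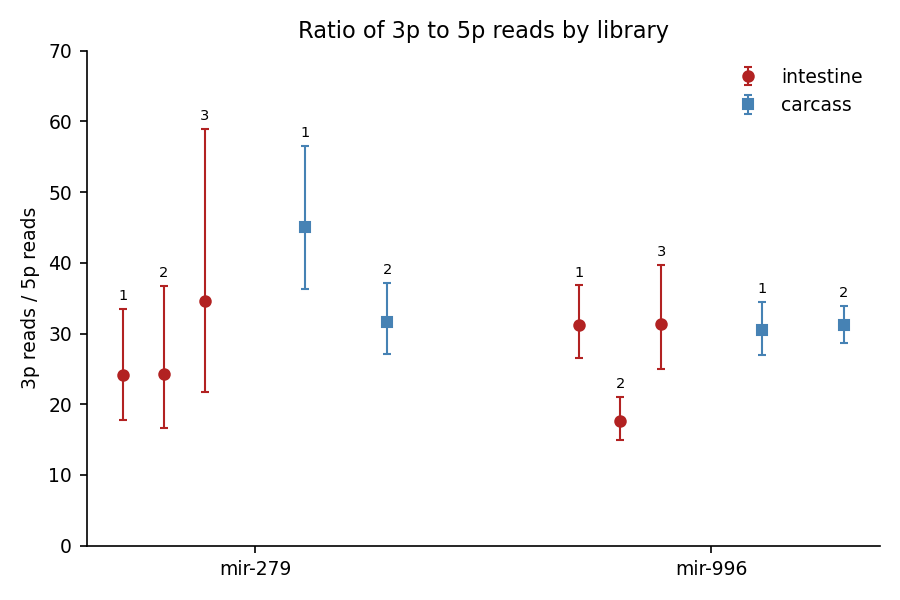
Reads of the 3p arm for each read of the 5p arm in each library (number above the point), intestine (circles) left of carcass (squares), with 95% counting intervals. The mir-996 points lie between 30.5 and 31.3 except for intestine 2 at 17.7, and the mir-279 points spread from 24.1 to 45.1 with overlapping tissues.

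mir-286, the third fly hairpin known to carry the same 3p seed, is encoded elsewhere and is known from the early embryo. Its 3p arm had 16, 12 and 5 reads in the intestine, against 8 and 14 reads in the carcass, or 33.6, 36.9 and 18.1 TMM-scaled CPM in the intestine, against 3.79 and 3.80 CPM in the carcass. All intestine values were above the carcass values, and the fitted log2 difference was 2.97 (SE 0.64, adjusted p = 8.92e-05 by edgeR). The filter on low counts was met by its intestine libraries alone, so its direction is in part set by that filter. The reads were few: miR-286-3p made up 0.16 to 0.36% of the summed 3p reads of the 3 hairpins in the intestine, against 0.060 to 0.066% in the carcass. Its 5p arm had 1 read in the intestine, against 2 in the carcass. miR-996-3p alone made up 79.1 to 82.1% of these 3p reads in the intestine, against 68.2 to 77.2% in the carcass.

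By likeness of profile, the products of the locus were not each other's nearest. Likeness was the root mean square distance between log2 TMM-scaled CPM, centred over the 5 libraries, for arms with a mean of at least 10 CPM. Of 209 arms outside the pair, those nearest to miR-996-3p were miR-2a-2-3p (distance 0.028), miR-2b-1-3p (0.042) and miR-2a-1-3p (0.046), members of the K-box family whose copies can share reads. They measured 3937 to 6408 CPM in the intestine, against 1883 to 3349 CPM in the carcass, with log2 fold changes of 0.97 to 1.01. Nearest to miR-279-3p were miR-12-5p (0.10), miR-34-3p (0.15) and miR-317-3p (0.17), with log2 fold changes of 0.31, 0.22 and 0.56, of which only that of miR-317-3p was called with TMM, and it was not called in 10 of 15 alternatives. The distance between miR-279-3p and miR-996-3p was 0.38, and 43 of the other 211 arms were nearer to miR-279-3p than miR-996-3p was. Arms of the same hairpin were not much nearer, with 0.34 between those of mir-279 and 0.32 between those of mir-996. miR-996-3p lay nearer to miR-279-5p, at 0.19. The 0.38 therefore does not set the hairpins apart. With 5 libraries of 2 tissues, the distance mostly follows the tissue difference and the contrast between the carcass libraries.

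Other microRNAs with roles in the processes for which the pair is known did not share one direction. Of 8 arms of microRNAs of sensory organ development (mir-9a, mir-7, mir-263a and mir-263b), 6 were tested, 2 were called higher and 2 lower in the intestine (34.7% and 48.2% of all tested arms were), with a median log2 fold change of -0.23, against -0.50 for all tested arms. miR-263a-3p (2.40) and miR-263a-5p (1.73) were higher, and miR-263b-5p (-6.55) and miR-7-5p (-2.31) were lower. Neither arm of mir-9a, which limits the number of sense organ precursors through senseless, was called with TMM (-0.21 for miR-9a-5p and -0.26 for miR-9a-3p), whereas each was called lower in 6 of 15 alternatives.

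Of 28 arms of 14 hairpins studied in circadian rhythm or sleep, 25 were tested, 6 were called higher and 16 lower in the intestine, where 34.7% of all tested arms were called higher and 48.2% lower. Most of the lower arms came from the neighbouring hairpins mir-959 to mir-964. These were also counted among the testis clusters above, so they are not independent members of this list. The median was -4.71 on the log2 scale, against -0.50 for all tested arms, and -4.61 when arms that had no intestine read were set at a bound of 3 reads over the 3 intestine libraries. For 12 of the 25 arms the filter on low counts was met by the carcass libraries alone, so both the count of lower arms and the median are in part set by that filter and say nothing of the list as a whole. By the bound of 3 reads miR-210-5p was at least 80.5-fold and miR-960-3p at least 23.9-fold lower in intestine libraries. miR-959-3p, with 1 intestine read, was 140-fold lower (95% counting interval 25.0 to 5532). The members that were higher included miR-92a-3p (2.00) and both arms of the bantam hairpin. bantam-3p, its abundant and growth-promoting arm, averaged 30445 TMM-scaled CPM in the intestine, against 19137 CPM in the carcass (0.67, edgeR adjusted p = 0.00411), and the minor bantam-5p differed by 1.19. The call of bantam-3p was lost in 8 of 15 alternatives, among them library totals (0.15, adjusted p = 0.478 by edgeR) and those without intestine replicate 2 (0.47), intestine replicate 3 (0.41) or carcass replicate 1 (0.40).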

How the data were processed

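The deposited values were raw counts of reads per mature microRNA arm, not normalised, for 3 intestine and 2 carcass libraries. The labels mention triplicates of both tissues, and why only 2 carcass libraries are listed is not stated. Per the labels' protocols, RNA of 18 to 29 nt was gel-selected, ligated to 3′ and 5′ linkers and sequenced on a NextSeq500. Ligation can favour some sequences, so ratios between arms are ratios of reads. Per the submitters' processing notes, cutadapt 1.9.1, Bowtie2 2.3.2 and featureCounts (Subread 2.0.0) were used; of the build, annotation, strand setting and multiple matches nothing is stated in the sources used here. All 479 rows were matched to BDGP6.54 (473 by name, 6 by synonym), a build that could not be checked against that of the authors; arms follow from position in the hairpin.

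Arms were kept by filterByExpr (minimum count 10, minimum total 15), which left 222, among them all 4 members, and tested with edgeR 4.0.16 in R 4.3.3 (TMM factors, tissue only, threshold 0.05, Benjamini-Hochberg over all arms). SE is the absolute log2 fold change over the root of F. Ratios were tested with diffSpliceDGE, with the hairpin, or the cluster of hairpins with gaps of at most 10000 bases, as the gene. With 2 features, the less abundant one carries the test, a choice made after the fits were seen; log2 ratios use a pseudocount of 0.5. Alternatives used limma 3.58.1, DESeq2 1.42.0, other scalings and filters, thinned libraries, a replicate block and left-out libraries. The tests were checked on simulated counts, where the arm test called 1.23% of arms without a difference, 32.4% at 1.5-fold and 75.5% at 2-fold. Small differences were thus mostly missed. Members, lists and tests were chosen with earlier results of these data known. Named are all 4 arms, miR-286, the 3 nearest profiles of each 3p arm and, per list, up to 4 called members with the largest change; mir-9a, miR-92a-3p and bantam were named after their values were seen.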

Additional observations from a re-analysis of the deposited data

How the results depend on the processing

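Both mir-996 arms were called higher under all 15 alternatives (miR-996-3p from 0.52 to 1.19 and miR-996-5p from 0.80 to 1.45 on the log2 scale), and miR-279-3p under none (adjusted p from 0.0510 to 0.957). miR-279-3p turned to -0.11 with library totals. miR-279-5p lost its call with RLE factors (0.56), library totals (0.41), DESeq2 (0.56), no filter (0.52) and thinned libraries (0.67), and ran from 0.59 to 0.999 with single libraries left out. The summed pair was 0.38 with library totals, a setting with 50 arms called higher against 77 with TMM. The log2 ratio of miR-996-3p to miR-279-3p ran from 0.29 to 0.95 with single libraries left out and passed with limma on log2 ratios with a pseudocount of 0.5 (0.61, adjusted p = 0.0239) or 1 (0.61, adjusted p = 0.0240). The 3p to 5p ratio of mir-996 ran from -0.44 to 0.013 with single libraries left out. Among the nearest profiles, miR-12-5p was below 0 with RLE factors (-0.063), library totals (-0.22), DESeq2 (-0.063) and no filter (-0.091). miR-34-3p was below 0 with RLE factors (-0.15), library totals (-0.31), totals without the most abundant arm (-0.00099), DESeq2 (-0.15), no filter (-0.19), thinned libraries (-0.078) and a minimum mean of 10 CPM (-0.049), and ran from -0.077 to 0.24 with single libraries left out. The cause of these changes was not tested.

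Libraries of both tissues carry the numbers 1 and 2, but nothing in the labels pairs them, and same-numbered libraries deviated together only weakly (r = 0.037 and 0.032 across arms, which are not independent). With the replicate block no call of a member changed: miR-279-3p had 0.40 (adjusted p = 0.176), miR-996-3p 1.05, and the ratio of miR-996-3p to miR-279-3p 0.65 (adjusted p = 0.143). Without a carcass library, the lone one left was assumed to vary like the intestine libraries. Depth limits miR-279-5p most, with 18 to 43 reads in each intestine library.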
